A study of Mus musculus with 16 samples.

Results

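The genes described here sense sterols for the transcription factor SREBP2 or handle the cholesterol of the hepatocyte: *Srebf2*, *Scap*, *Insig1*, *Insig2*, *Stard4*, *Soat1*, *Soat2* and *Scarb1*. They were taken by symbol, 8 of the 55450 genes in the count table, by a rule that uses no measured value, although with earlier results of these data known. Bulk RNA-seq libraries came from primary hepatocytes of male C57BL/6J mice, wild type and aged 8 to 12 weeks, which were cultured in medium with serum and insulin. Itaconate is a metabolite that activated macrophages make in quantity. Untreated cells were compared with cells given 10 mM itaconate, a 10-fold dilution of a chemically defined lipid mixture, or both agents together. The undiluted mixture holds 0.22 mg/mL cholesterol together with saturated and unsaturated fatty acids, so that an effect of the sterol and an effect of the fatty acids cannot be told apart. Each of the 4 groups had 4 libraries, lettered A to D, and the labels do not say whether a letter is a mouse or a culture. The p-values therefore measure the spread between these libraries, which may be technical.

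SREBP2, the product of *Srebf2*, is made as a precursor in the membrane of the endoplasmic reticulum, where it is bound to its escort SCAP. When membrane cholesterol is ample, SCAP is held back by an INSIG protein, encoded by *Insig1* or *Insig2*. When cholesterol is scarce, SCAP carries SREBP2 to the Golgi, proteases release its active part, and this part turns on genes of sterol synthesis and uptake. *Srebf2* itself, *Insig1* and *Stard4* are known targets of the factor, whereas *Insig2* is known as an INSIG gene that does not need it. STARD4 is a soluble carrier that moves cholesterol between membranes, SOAT1 and SOAT2 store it as esters, and the receptor encoded by *Scarb1* takes up cholesteryl esters from high-density lipoprotein.

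The stretches just upstream of *Srebf2*, *Insig1* and *Insig2* are shown because transcript levels of the first and the second of these genes fell with lipid while that of the third did not pass the test. They are RefSeq promoter sequence on GRCm38.p6, written 5′ to 3′ on the strand of the gene, and each was trimmed to end before the gene begins. *Srebf2* is at chr15:82147019-82147180 (plus strand), *Insig1* at chr5:28071162-28071362 (plus strand) and *Insig2* at chr1:121332590-121332839 (minus strand). *Insig2* had 3 RefSeq promoter windows and only the first is shown, so the stretch need not be the start used in these cells. Capitals mark TCACCCCA, the letters of a sterol regulatory element, CACGTG, an E-box, and CCAAT, the box of factor NF-Y, each searched on both strands, so that CCAAT on the other strand reads ATTGG.
Srebf2: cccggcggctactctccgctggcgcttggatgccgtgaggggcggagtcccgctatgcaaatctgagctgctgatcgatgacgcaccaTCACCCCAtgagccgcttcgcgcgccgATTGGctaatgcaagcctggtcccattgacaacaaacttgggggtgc
Insig1: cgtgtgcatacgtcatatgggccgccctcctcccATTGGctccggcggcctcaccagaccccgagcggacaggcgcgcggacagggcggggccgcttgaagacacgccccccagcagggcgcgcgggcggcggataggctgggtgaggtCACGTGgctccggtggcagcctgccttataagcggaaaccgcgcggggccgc
Insig2: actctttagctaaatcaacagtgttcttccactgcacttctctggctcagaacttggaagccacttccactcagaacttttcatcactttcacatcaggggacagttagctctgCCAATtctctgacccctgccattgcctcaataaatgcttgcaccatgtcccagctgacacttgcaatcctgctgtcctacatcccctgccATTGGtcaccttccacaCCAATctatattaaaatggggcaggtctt
TCACCCCA lay 162 bases upstream of the RefSeq start of *Srebf2* and was in 1.56% of 32851 promoter windows of 300 bases. The CACGTG of *Insig1* lay 101 bases upstream, and 7.15% of windows held one. *Scap*, which was not called with lipid in the model of all libraries, held CACGTG in each of its 2 overlapping windows. CCAAT was found upstream of all 3 genes, 3 times in the window shown for *Insig2*, and is common, in 37.4% of windows. The form TCACNCCAC was in 1.24% of windows and in none of the 8 windows of the 5 genes that had one (*Srebf2*, *Insig1*, *Insig2*, *Scap* and *Soat1*). *Stard4*, *Soat2* and *Scarb1* had no promoter window, so no motif was searched for them. The shorter form was searched after the sequences had been read. A match is a run of letters and not a measured binding site.

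The total of expected counts was 22346049 to 35512004 per library. Of the 8 genes, 7 reached a mean of 1 CPM in the 16 libraries (CPM being the count scaled to the TMM-normalized library size) and were tested among 11675 genes. *Soat1* was under this limit and its values come from a fit of all genes with no filter. The defining hepatocyte markers were present, with all 10 at 1 CPM or more in every group. On GRCm38 the genes lie at chr15:82147181-82205379 (*Srebf2*), chr9:110333288-110384950 (*Scap*), chr5:28071363-28078662 (*Insig1*), chr1:121304353-121332589 (*Insig2*), chr1:156424525-156474331 (*Soat1*), chr15:102150526-102163469 (*Soat2*) and chr5:125277087-125341094 (*Scarb1*). The library lipid + itaconate B stood apart from the others of its group. Called changes of the 8 genes that rest on it are also given without it, and without it the calls of the 7 tested genes in the comparisons that use it were the same.

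Levels of the 8 genes were compared per length, as CPM per kilobase of exon, in untreated hepatocytes first. *Insig1* was the most abundant at 76.5 ± 6.62 (SD, n = 4), followed by *Insig2* at 53.4 ± 0.998, and the ranges of their libraries did not overlap. *Scap* at 17.7 ± 0.774 and *Srebf2* at 17.5 ± 0.560 came next, with overlapping ranges. *Soat2* at 12.2 ± 1.83, *Stard4* at 10.6 ± 0.493 and *Scarb1* at 10.1 ± 0.383 formed the next group, where each neighbour overlapped the next. *Soat1* was far below them at 0.0845 ± 0.0131, or 15 to 27 counts in a library. With itaconate the ranges of *Insig1* and *Insig2* overlapped, at 69.0 ± 7.43 and 54.7 ± 3.43. With lipid the order of the INSIG genes turned, *Insig2* standing at 49.4 ± 5.73 and *Insig1* at 29.4 ± 1.94 with no overlap between their libraries. The same order held with lipid + itaconate, at 53.4 ± 2.701 for *Insig2* and 32.1 ± 3.54 for *Insig1*. The length counts the exons of all annotated forms of a gene, so the order between genes depends on it. By CPM alone untreated cells had *Scarb1* at 86.2, *Stard4* at 59.3 and *Soat2* at 27.1, the reverse of their order per length.

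The first question was what the lipid mixture did to these transcripts. In lipid-treated against untreated hepatocytes, *Srebf2*, *Insig1* and *Stard4* fell and no gene of the group rose, 3 lower of 7 tested, where 23.7% of all genes tested were called lower. Over all genes 47.5% changed in either direction, so lipid moved a large share of the transcriptome. On the log2 scale the median change of these 7 was −0.12, and that of all genes tested was 0.0047. The same 3 genes were those whose libraries did not overlap between the groups, all lower with lipid, which was so for 15.9% of all genes (16.6% did not overlap in the higher direction and 32.5% in either).

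*Srebf2*, the gene of the transcription factor, was at 123, 131, 124 and 123 CPM in untreated libraries A to D. With lipid it was at 89.1, 93.4, 87.3 and 92.8 CPM. Every lipid-treated library was below every untreated one, and the highest of all was untreated B. Its level fell by 27.7%, a log2 fold change of −0.47 (SE 0.058; edgeR quasi-likelihood, adjusted p = 1.119e-05), and within letters the change ran from −0.51 to −0.41.

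*Scap*, the escort, was at 140.2, 129, 130.1 and 127 CPM in untreated libraries A to D and at 138, 138, 144 and 136 CPM with lipid. The groups overlapped, through untreated A. The model gave a log2 fold change of 0.08 (SE 0.039, adjusted p = 0.1033), with a 95% interval of −0.0027 to 0.16. This interval leaves out a fall of the size seen in *Srebf2*.

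*Insig1*, the retention factor, had the largest change of the 8. Its untreated libraries A to D were at 237, 265, 219 and 225 CPM, and the lipid-treated ones at 89.9, 86.5, 87.3 and 99.6 CPM. The highest lipid-treated library was below the lowest untreated one by more than the range of either group. The level fell by 61.5%, a log2 fold change of −1.38 (SE 0.065, adjusted p = 1.077e-09), and all 4 letters fell.

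*Insig2*, the other retention factor, was at 186, 181, 185 and 189 CPM in untreated libraries A to D and at 179, 191, 144 and 171 CPM with lipid. The untreated libraries were close together, whereas the lipid-treated ones spread on both sides of them, with C lowest. The log2 fold change was −0.12 (SE 0.060, adjusted p = 0.1203), with a 95% interval of −0.24 to 0.010. The counts are per gene and sum any transcript forms of *Insig2*, so that forms from different starts were not told apart.

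*Stard4*, the cholesterol carrier, was at 63.1, 58.4, 59.2 and 56.6 CPM in untreated libraries A to D. With lipid it was at 47.1, 40.9, 51.6 and 49.3 CPM. The groups did not overlap, although the lipid-treated ones were more spread, with B lowest. Its level fell by 20.3%, a log2 fold change of −0.33 (SE 0.087, adjusted p = 0.005934), in all 4 letters.

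The esterifying enzymes gave no call in the model of all libraries. *Soat2* was at 32.98, 26.2, 25.3 and 23.8 CPM in untreated libraries A to D and at 36.3, 27.5, 29.8 and 26.3 CPM with lipid. Letter A was the highest in both groups and the groups overlapped, but each letter was higher with lipid, so that the difference is seen within letters. It amounted to 0.15 on the log2 scale (SE 0.064, adjusted p = 0.07276, unadjusted p = 0.03728), and it passed with only the 8 libraries and without lipid D or lipid + itaconate C or D (lowest adjusted p = 0.03609). *Soat1* was at 0.702, 0.876, 0.984 and 0.748 CPM untreated and at 0.487, 1.24, 1.21 and 1.15 CPM with lipid. Its groups overlapped through lipid A, which rested on 12 counts, and its log2 fold change of 0.28 had a 95% interval of −0.32 to 0.89, too wide to show a change of the size seen in *Stard4*.

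*Scarb1*, the lipoprotein receptor, was at 87.7, 82.6, 90.0 and 84.7 CPM in untreated libraries A to D and at 82.8, 81.0, 82.7 and 79.5 CPM with lipid. Each letter was lower with lipid, but the groups overlapped through untreated B. The log2 fold change was −0.08 (SE 0.039, adjusted p = 0.09586), with a 95% interval of −0.16 to 0.00078.

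**Figure D1:**
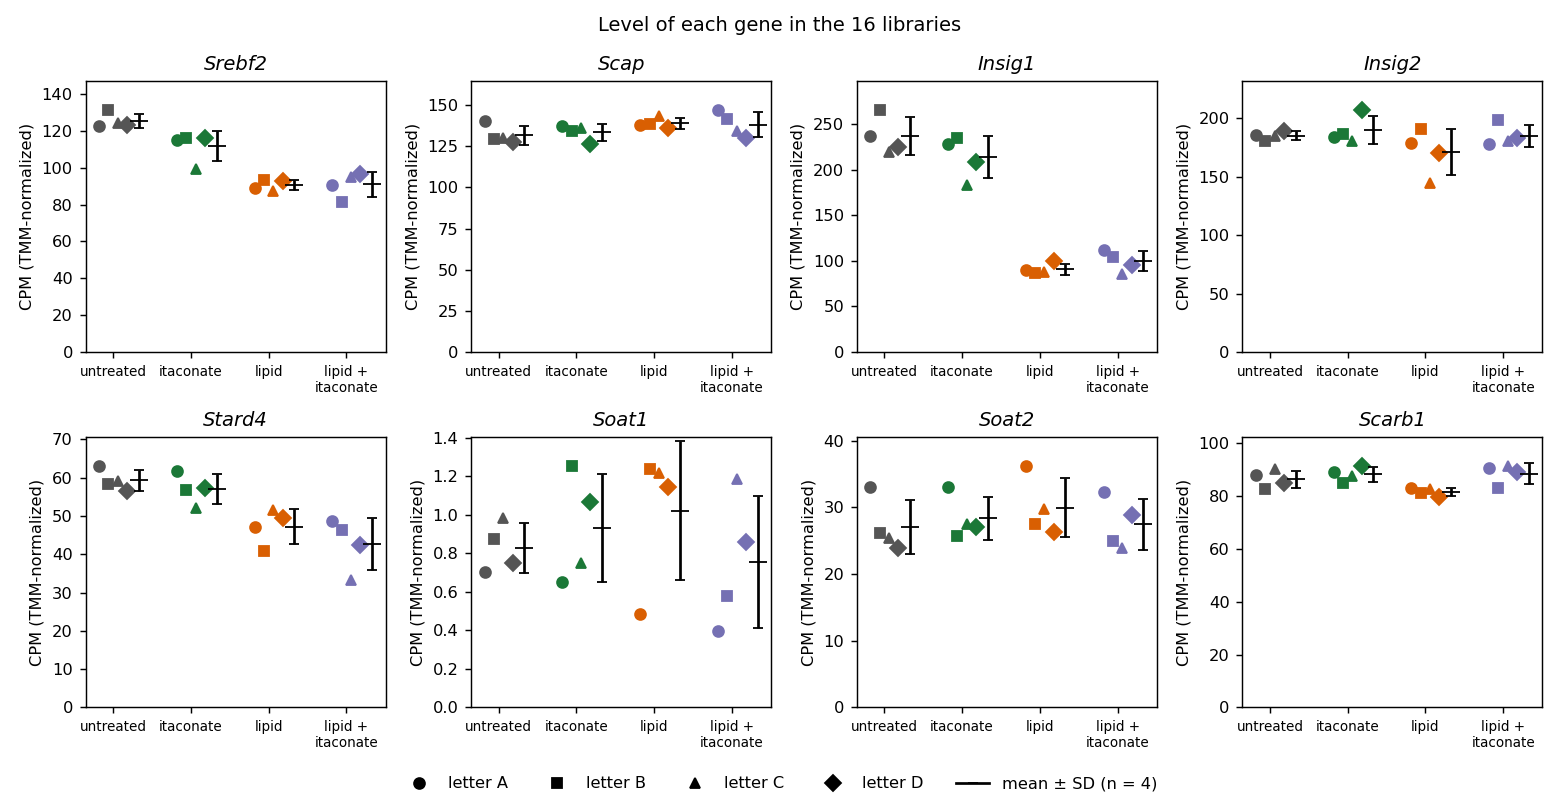
TMM-normalized CPM of each of the 8 genes (vertical axis, from 0) in the 16 libraries by treatment group (horizontal axis), with 1 symbol per replicate letter and the mean ± SD (n = 4) beside each group. *Insig1* sits between 219 and 265 CPM in untreated libraries and between 86.5 and 99.6 CPM with lipid, while *Scap* stays between 126 and 147 CPM in all 16 libraries.

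The lipid mixture was also given to itaconate-treated hepatocytes, which asks whether the response to lipid is seen beside itaconate. In lipid + itaconate-treated against itaconate-treated cells, *Srebf2*, *Insig1* and *Stard4* again fell and no gene of the group rose, 3 lower of 7 tested, against 23.5% of all genes called lower and 47.0% called in either direction. The same 3 genes did not overlap between the groups, which was so in the lower direction for 14.8% of all genes, in the higher for 16.6% and in either for 31.4%. The median change was −0.05 over these 7 and 0.0041 over all genes tested, on the log2 scale. This comparison has no library in common with lipid-treated against untreated cells, although both were estimated in 1 model.

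*Insig1* was at 228, 234, 184 and 208 CPM in itaconate-treated libraries A to D and at 111, 104, 85.9 and 95.7 CPM with both agents. The groups were far apart, and library C was the lowest of both. The level fell by 53.5%, a log2 fold change of −1.10 (SE 0.064, adjusted p = 1.469e-08), and without lipid + itaconate B it was −1.10 (adjusted p = 6.714e-08).

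*Srebf2* was at 115, 116, 99.6 and 116 CPM in itaconate-treated libraries A to D and at 90.5, 81.4, 95.1 and 96.8 CPM with both. The groups did not overlap but came close, since the lowest itaconate-treated library, C, was only just above the highest library with both, D. The log2 fold change was −0.30 (SE 0.058, adjusted p = 0.0007154), and the change within letter C was −0.07, against −0.26 to −0.51 in the other letters. Without lipid + itaconate B, the lowest of its group, the log2 fold change was −0.23 (adjusted p = 0.001896).

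*Stard4* was at 61.8, 56.8, 52.1 and 57.3 CPM in itaconate-treated libraries A to D and at 48.6, 46.3, 33.3 and 42.3 CPM with both. Every library with both agents was lower than every itaconate-treated one, and C was again the lowest in each group. The log2 fold change was −0.42 (SE 0.087, adjusted p = 0.001068), and −0.49 without lipid + itaconate B (adjusted p = 0.0004594).

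The other 5 genes overlapped between these groups. *Scap* was at 126 to 138 CPM with itaconate and 130.1 to 147 CPM with both, a log2 fold change of 0.05 (adjusted p = 0.313). *Insig2* was at 181 to 207 and 178 to 199 CPM, a log2 fold change of −0.03 (adjusted p = 0.6606; −0.06 without lipid + itaconate B), and its 95% interval of −0.16 to 0.092 leaves out the fall seen in *Stard4*. *Soat2* at 25.8 to 33.1 and 23.9 to 32.3 CPM, with a log2 fold change of −0.05 (adjusted p = 0.5658), and *Scarb1* at 84.8 to 91.4 and 82.8 to 91.3 CPM, with one of 0.0038 (adjusted p = 0.945), gave values near 0. *Soat1* was at 0.652 to 1.25 and 0.398 to 1.184 CPM, on 14 to 37 counts, and its log2 fold change of −0.33 again had a wide 95% interval, from −0.94 to 0.27.

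**Figure D2:**
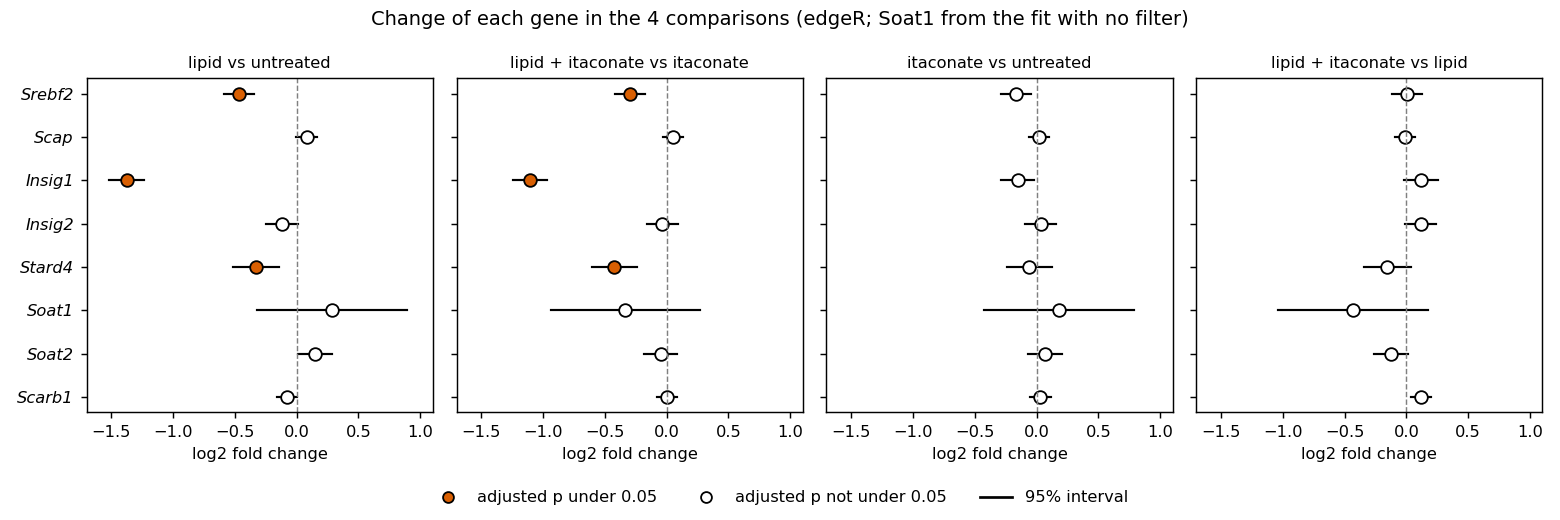
Log2 fold change (horizontal axis) of each of the 8 genes in 4 comparisons (panels), as the estimate and its 95% interval from the edgeR model, with filled points at an adjusted p under 0.05. The filled points are *Srebf2*, *Insig1* and *Stard4* in both comparisons of lipid, at −0.30 to −1.38, and no point is filled in either comparison of itaconate.

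Because the genes of a pair moved unequally, the ratios of *Insig1* to *Insig2*, of *Srebf2* to *Scap* and of *Soat1* to *Soat2* were taken within each library on the scale per kilobase and compared in 12 tests. These pairs were chosen after their values were seen, so the ratios describe the libraries and give no further support to the changes above. *Insig1* exceeded *Insig2* in every library without lipid, at 1.33 to 1.65 untreated and 1.13 to 1.41 with itaconate. With lipid the ratio was 0.508 to 0.679, and with both agents 0.535 to 0.700, so that no library with lipid reached 1. The mean ratio was 1.44 ± 0.148 untreated and 0.601 ± 0.0797 with lipid (SD, n = 4; exact permutation test of the log2 ratio, two-sided p = 0.02857, the smallest that 4 against 4 libraries allow, and 0.1143 after Benjamini-Hochberg adjustment over 12 tests). *Srebf2* and *Scap* were nearly level in untreated libraries, at a ratio of 0.907 to 1.05, and *Srebf2* was the lower with lipid, at 0.629 to 0.707. The exact permutation p was 0.02857 here too (adjusted 0.1143). In itaconate-treated cells the *Srebf2* to *Scap* ratio was 0.756 to 0.955, and with both agents 0.595 to 0.771, with overlap (exact permutation p = 0.05714, adjusted 0.1371), although it was lower with both in each of the 4 letters, which this test does not pair. The *Soat1* to *Soat2* ratio was 0.0028 to 0.0112 over all libraries, and none of its 4 exact permutation tests had a p under 0.6.

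**Figure D3:**
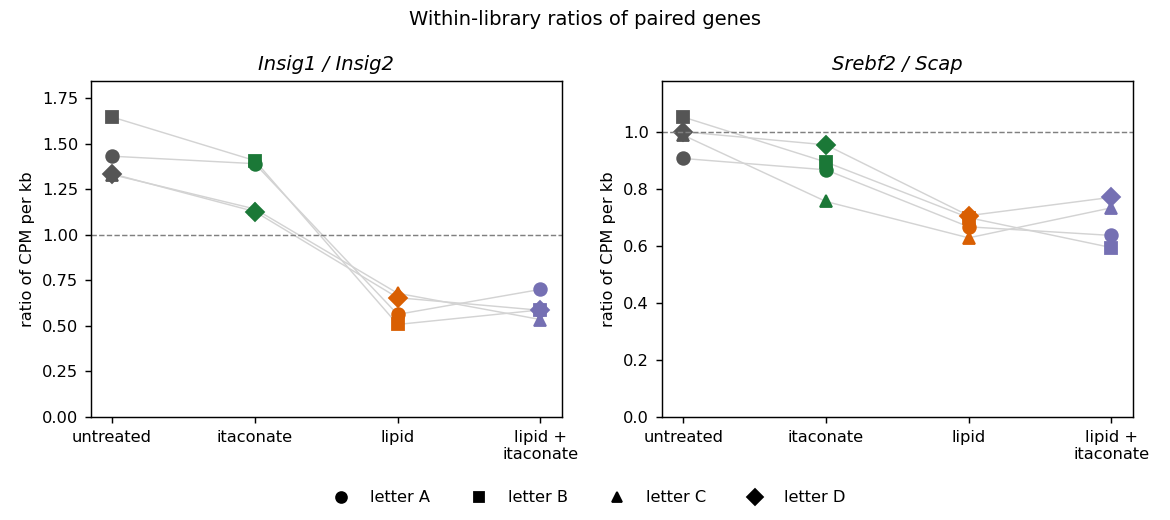
Ratio of the CPM per kilobase of *Insig1* to *Insig2* (left) and of *Srebf2* to *Scap* (right) in each library, by treatment group, with libraries of 1 letter joined by a line and the dashed line at a ratio of 1. The *Insig1* to *Insig2* ratio is above 1 in all 8 libraries without lipid and below 1 in all 8 with it.

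The second question was whether itaconate changed these transcripts. In itaconate-treated against untreated hepatocytes, 0 of 7 genes passed the threshold in edgeR's quasi-likelihood test, where 4.91% of all genes did (1.96% higher, 2.95% lower), and 0 passed in DESeq2 and in limma-trend as well. At an unadjusted p under 0.05 there were 2, *Srebf2* and *Insig1*, both lower. The share of all genes at that unadjusted threshold is not given, here or below. Counts at an unadjusted p therefore cannot be read as an excess, and the shares given are for the adjusted threshold. *Srebf2* was at 115, 116, 99.6 and 116 CPM in itaconate-treated libraries A to D, against 123 to 131 CPM in untreated ones. Its groups did not overlap, the 1 such gene of the 7, which was so in the lower direction for 3.86% of all genes, in the higher for 3.67% and in either for 7.53%. The log2 fold change was −0.17 (SE 0.058, unadjusted p = 0.01059, adjusted p = 0.1063), and all 4 letters were lower. Its adjusted p was 0.04641 without lipid + itaconate B, a library that enters this comparison only through the shared spread and letter terms.

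*Insig1* was at 184 to 234 CPM with itaconate against 219 to 265 CPM in untreated cells, overlapping through A and B. Its log2 fold change was −0.15 (SE 0.063, unadjusted p = 0.02902, adjusted p = 0.1787), with all 4 letters lower. When the 8 libraries compared were fitted alone, *Srebf2* and *Insig1* both passed, with an adjusted p of 0.01667 and 0.01251, in a fit that called 1865 genes against 573. The other tested genes had log2 fold changes from −0.06 (*Stard4*) to 0.07 (*Soat2*), and the median of the 7 was 0.02.

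In lipid + itaconate-treated against lipid-treated hepatocytes, 0 of 7 genes passed in edgeR, against 2.58% of all genes (1.32% higher, 1.26% lower), and 0 passed in DESeq2 and in limma-trend. *Scarb1* alone was at an unadjusted p under 0.05. It was at 90.6, 82.8, 91.3 and 88.8 CPM in libraries A to D with both agents, against 82.8, 81.0, 82.7 and 79.5 CPM with lipid. The lowest library with both, B, was just above the highest lipid-treated one, so the groups did not overlap, which was so in the higher direction for 2.96% of all genes, in the lower for 2.85% and in either for 5.82%. The log2 fold change was 0.12 (SE 0.038, unadjusted p = 0.007966, adjusted p = 0.1224), with all 4 letters higher, and 0.13 without lipid + itaconate B (adjusted p = 0.1484).

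*Srebf2* differed little between these groups, at 81.4 to 96.8 CPM with both and 87.3 to 93.4 CPM with lipid, a log2 fold change of 0.0058 with a 95% interval of −0.12 to 0.13. *Insig1* was at 85.9 to 111 CPM with both against 86.5 to 99.6 CPM with lipid, with A and B higher and C and D lower, and a log2 fold change of 0.12 (adjusted p = 0.3523). *Stard4* was at 33.3 to 48.6 against 40.9 to 51.6 CPM, with A and B higher and C and D lower, and its log2 fold change was −0.15 (adjusted p = 0.3819), or −0.22 without lipid + itaconate B (adjusted p = 0.2444). For *Insig2* the values were 178 to 199 against 144 to 191 CPM and the log2 fold change was 0.12 (adjusted p = 0.3373). *Soat2* at 23.9 to 32.3 against 26.3 to 36.3 CPM gave −0.12 (adjusted p = 0.332). The groups overlapped for each of these genes and for *Scap*, at 130.1 to 147 against 136 to 144 CPM. *Soat1* was lower in all 4 letters with both agents, at 0.398 to 1.184 against 0.487 to 1.24 CPM, with overlapping groups and a log2 fold change of −0.43 whose 95% interval ran from −1.04 to 0.17.

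Whether itaconate altered the response to lipid was tested as the interaction. It passed for 0 of 7 genes in edgeR, where 0.00857% of all genes passed, and for 0 in DESeq2 and limma-trend. At an unadjusted p under 0.05 there were 2, *Insig1* and *Soat2*. The fall of *Insig1* with lipid was smaller beside itaconate, −1.10 against −1.38, and the difference of 0.27 (SE 0.091, unadjusted p = 0.008442, adjusted p = 0.4009) was positive in all 4 letters, from 0.06 to 0.45. For *Soat2* the difference was −0.19 (SE 0.091, unadjusted p = 0.04844, adjusted p = 0.5756), negative in all 4 letters. *Srebf2* had a difference of 0.17 with a 95% interval of −0.0011 to 0.35, and its letter B went the other way. Without lipid + itaconate B the difference was 0.23 (adjusted p = 0.2045). Each comparison of lipid shares libraries with both comparisons of itaconate, so their values are given side by side and no correlation between them was taken.

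Genes of the surrounding pathway were described by list. Among 20 enzymes of sterol synthesis, lipid lowered 16 and raised 1, against 23.7% of all genes lower and 23.8% higher, with a median log2 fold change of −0.55. The largest falls were of *Idi1*, an isoprenoid isomerase, from 119 ± 17.3 to 51.5 ± 10.7 CPM (SD, n = 4; log2 fold change −1.21, adjusted p = 2.295e-07), and of *Lss*, the enzyme that forms lanosterol, from 57.4 ± 6.80 to 26.4 ± 3.27 CPM (−1.12, adjusted p = 1.812e-07). Beside them *Insig1* fell by 1.38 on the same scale. The 1 that rose was *Dhcr7*, a reductase of the last steps to cholesterol, from 72.0 ± 13.5 to 99.5 ± 19.0 CPM (0.47, adjusted p = 0.005847), and without the letter in the model 0 rose and 12 fell. In itaconate-treated cells lipid lowered 15 and raised *Dhcr7*, against 23.5% of all genes in each direction, with a median of −0.50.

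Itaconate alone lowered 4 of the 20 enzymes and raised 0, where 2.95% of all genes were lower, with a median of −0.26 against −0.0019 over all genes. The largest of these falls were of *Hmgcs1*, an enzyme at the head of the pathway, from 270 ± 31.7 to 208 ± 42.5 CPM (log2 fold change −0.39, adjusted p = 0.01495), and of *Hsd17b7*, a sterol ketoreductase, from 22.7 ± 2.26 to 17.6 ± 3.45 CPM (−0.37, adjusted p = 0.03939). This count depended on single libraries. It was 0 without untreated A or B or without itaconate C or D, 1 without untreated C, 2 without untreated D, 7 without lipid + itaconate B, 10 without itaconate A and 14 without lipid + itaconate C. It was 10 in DESeq2, 7 in limma-trend, 14 with only the 8 libraries compared and 0 without the letter in the model, and 14 of the 20 had an unadjusted p under 0.05, all lower. On top of lipid, itaconate lowered 1 of the 20, where 1.26% of all genes were lower. This was *Hsd17b7*, from 16.4 ± 1.17 to 12.4 ± 1.74 CPM (−0.41, adjusted p = 0.04534), where 5 had an unadjusted p under 0.05. The count was 0 without any 1 of the 4 untreated libraries, lipid B, C or D, itaconate B or D, or lipid + itaconate A, B or D, and 3 without lipid + itaconate C. It was also 0 without the letter, with the filterByExpr filter and with only the 8 libraries, 2 in DESeq2 and 5 with no filter.

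Of 15 other genes of SREBP processing and of sterol-regulated degradation, lipid raised 3 and lowered 2, with a median of 0.01, so that 5 of 15 were called where 47.5% of all genes were, a share below the background. *Erlin1*, whose product sits in the complex that degrades sterol-sensing proteins, rose from 31.7 ± 4.56 to 46.9 ± 4.99 CPM (log2 fold change 0.57, adjusted p = 3.911e-06), and *Ufd1*, an adaptor of the segregase that extracts such proteins, rose by 0.29 (adjusted p = 0.0005614). *Srebf1*, the sister gene of *Srebf2*, fell from 103 ± 3.40 to 65.1 ± 4.80 CPM (−0.67, adjusted p = 1.306e-06). Beside itaconate, lipid raised 4 of the 15 and lowered 4, near the background of 47.0%, with the same 2 largest rises, and *Srebf1* (−0.55) and the site-1 protease gene *Mbtps1* (−0.14) as the largest falls. That count of 8 was 5 without itaconate A or C or lipid + itaconate D, 4 without itaconate D and 9 without lipid + itaconate B. It was 5 without the letter in the model and 4 with no filter. Itaconate alone lowered 1, *Erlin2*, by 0.20 on the log2 scale (adjusted p = 0.04754), where 2.95% of all genes were lower. When 1 library was left out this call held only without untreated C or lipid + itaconate B or C. It was also lost without the letter in the model, with RLE normalization and with the filterByExpr filter. On top of lipid, where 2.58% of all genes were called, itaconate moved 0 in edgeR, DESeq2 and limma-trend, and 1 at an unadjusted p under 0.05.

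Of 14 tested genes of sterol transport and ester hydrolysis, lipid raised 4 and lowered 2, with a median of 0.02, so that 6 of 14 were called, near the background of 47.5%. *Stard5*, a relative of *Stard4*, rose from 19.7 ± 2.31 to 30.4 ± 5.42 CPM (log2 fold change 0.62, adjusted p = 0.0001349), opposite in direction to *Stard4*. *Pdzk1*, whose product holds the *Scarb1* receptor at the cell surface, rose from 8.25 ± 0.574 to 11.0 ± 0.575 CPM (0.41, adjusted p = 0.001115). *Ces1d*, a carboxylesterase, fell by 0.34 and *Osbp*, an oxysterol-binding protein, fell by 0.16 on the log2 scale (adjusted p = 0.02658 and 0.005592). Beside itaconate 2 rose and 2 fell, under the background of 47.0%, *Stard5* (0.27) and the lysosomal esterase gene *Lipa* (0.27) against *Ces1d* (−0.38) and *Osbp* (−0.31), and without the letter in the model 2 were called, *Lipa* and *Osbp*. Itaconate lowered *Npc2*, a lysosomal sterol carrier, by 0.16 in cells without lipid (adjusted p = 0.03621), where 2.95% of all genes were lower. In cells with lipid it lowered *Stard5* by 0.46 (adjusted p = 0.0264), where 1.26% of all genes were lower. These were the 1 call of each comparison. The first was lost without untreated or itaconate A, B or C, and the second without lipid A, C or D or lipid + itaconate A, while 2 genes were called in each without lipid + itaconate C. Without the letter in the model both counts were 0. The count with itaconate alone was also 0 with the filterByExpr filter and with no filter, and that on top of lipid was 0 with only the 8 libraries.

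Targets of the oxysterol receptor LXR, which responds to sterol excess, were listed too, together with the receptor genes *Nr1h3* and *Nr1h2*. Both were tested and are in the counts below. *Nr1h3* is among the falls with lipid (log2 fold change −0.25, adjusted p = 0.004908), and *Nr1h2* was not called. Lipid lowered 5 of the 8 tested and raised 0, where 23.7% of all genes were lower, with a median of −0.29. *Abcg5*, a sterol exporter subunit, fell from 4.77 ± 1.24 to 2.96 ± 0.345 CPM (log2 fold change −0.67, adjusted p = 0.003428), and *Srebf1*, which is on this list also, is given above. Beside itaconate 6 fell and 1 rose, where 23.5% of all genes were called in each direction, *Abcg8*, the partner of *Abcg5*, having the largest fall (−0.88, adjusted p = 0.001261) and *Lpcat3*, a phospholipid-remodelling enzyme, being the 1 that rose (0.42, adjusted p = 0.001254). Without the letter in the model 3 fell with lipid. Itaconate moved 0 of the 8 with or without lipid in edgeR, DESeq2 and limma-trend, with 1 gene at an unadjusted p under 0.05 without lipid and 0 with it. Over all genes edgeR called 4.91% with itaconate in cells without lipid and 2.58% in cells with lipid. In cells without lipid, 1 gene of this list (*Lpcat3*, lower) was called with no filter and with only the 8 libraries. On top of lipid, 1 (*Abcg5*, higher) was called without lipid + itaconate C. The interaction passed for 0 genes of the 4 lists in the same 3 tools, and at an unadjusted p under 0.05 it held 1 of the synthesis enzymes, 2 of SREBP processing, 3 of sterol transport and 0 of the LXR targets.

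**Figure D4:**
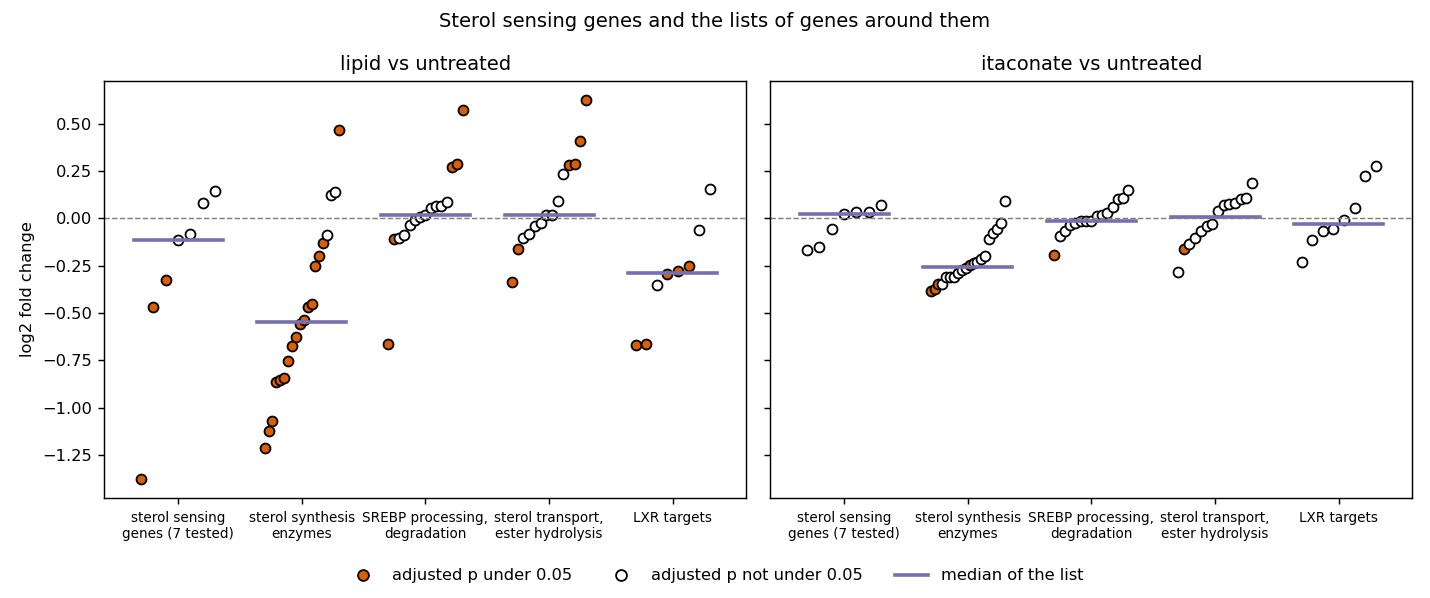
Log2 fold change (vertical axis) of each gene tested among the sterol sensing genes and in the 4 lists around them (horizontal axis), for lipid against untreated (left) and itaconate against untreated (right), with filled points at an adjusted p under 0.05 and bars at the median of a list. In the left panel 16 of 20 sterol synthesis enzymes are filled below 0 around a median of −0.55, while the lists of SREBP processing and sterol transport have medians of 0.01 and 0.02.

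Markers of other liver cells moved with lipid and are given for the whole lists. Of 10 macrophage and Kupffer cell markers tested (13 listed), 1 rose and 6 fell with lipid, and 1 rose and 9 fell with lipid beside itaconate, where lipid called 47.5% and 47.0% of all genes. With itaconate, which called 4.91% of all genes, 1 rose (*Lyz2*) and 1 fell. On top of lipid, where itaconate called 2.58% of all genes, 1 of these markers fell. Their summed level was 190 to 306 CPM in untreated, 169 to 259 in itaconate-treated, 239 to 338 in lipid-treated and 220 to 325 CPM in lipid + itaconate-treated libraries, most of it from *Cd68*, which rose in both comparisons of lipid and fell with itaconate. The defining Kupffer cell gene *Clec4f* was at 1.51 to 2.56 CPM in the group means. The hepatocyte markers summed to 45608 to 61272 CPM in untreated, 45546 to 61695 in itaconate-treated, 39469 to 51296 in lipid-treated and 35243 to 56902 CPM in lipid + itaconate-treated libraries. Of these 10, 4 fell with lipid, led by *Fgb* (log2 fold change −0.41), with a list median of −0.21, and beside itaconate 6 fell and 1 rose, with the same backgrounds. Both tested cholangiocyte markers, *Sox9* and *Spp1*, fell with lipid in both comparisons. The 6 listed summed to 599.7 to 1169 CPM untreated, 573 to 1047 with itaconate, 336 to 608 with lipid and 356 to 646 CPM with both, while *Krt7* was at 0 in the itaconate and the lipid group and *Krt19* and *Epcam* were under 0.35 CPM in the group means. Of 5 endothelial markers tested (summed level 11.2 to 22.5 CPM over all groups) 1 rose and 1 fell with lipid, and beside itaconate 1 fell. The 1 stellate marker tested, *Reln*, fell beside itaconate and was not called with lipid alone, with the 7 listed at 16.2 to 25.5 CPM and *Acta2* at 0 in 3 groups. The part of these cells in the results was not tested. In bulk RNA, fewer cells of a type and less RNA per cell cannot be told apart.

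The 7 tested genes were also compared by their pattern over the 16 libraries, as the log2 CPM after the mean of each letter was taken out. These are descriptions over libraries that share 4 treatments, so that any gene moved by lipid takes part in the same contrast. *Srebf2* and *Insig1* had a Pearson r of 0.92, *Insig1* and *Stard4* 0.85, and *Srebf2* and *Scap* −0.81. *Insig1* and *Insig2* were less alike, at 0.36. Neighbours were ranked among tested genes with a symbol of their own, leaving out Gm-number, Rik and clone names. The most like *Srebf2* were *Mrap* (0.98), *Lpin1* (0.98) and *Rtp4* (0.98), and the most like *Insig1* were *Acox2* (0.99), *Rdh11* (0.99) and *Ascc3* (0.98). *Nat8f1* (0.95) was among the nearest to *Stard4*, and the nearest to *Scap* were *Fn1* (0.96), *R3hdm1* (0.95) and *Wwox* (0.93). Top values were lower for the others, led for *Insig2* by *Wdr45* (0.91), *Fgl1* (0.91) and *Vegfc* (0.89), for *Scarb1* by *Crebl2* (0.89), *H6pd* (0.88) and *Cdkn2c* (0.87), and for *Soat2* by *Dand5* (0.88), *Cryab* (0.85) and *Mettl23* (0.84).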

How the data were processed

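RNA of primary mouse hepatocytes was sequenced in 16 stranded mRNA libraries, 4 per treatment. Per the study's methods and the submitters' processing notes, the authors made reads with bcl2fastq 2.20, trimmed them with Cutadapt 1.18, aligned them to mm10 with STAR 2.7.0f, used Picard 2.18.26 and quantified GENCODE genes with RSEM 1.3.1. The deposited values are expected counts per gene, with no normalization. They share reads that fit several genes and were not whole in 5.41% of cases. The authors' own normalization, filter and batch removal came later and are not in these values, and the batch is not named in the sources used here.

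Expected counts were rounded and tested with edgeR 4.0.16 under R 4.3.3 (TMM, quasi-likelihood test), with treatment and replicate letter in 1 model of all 16 libraries, a mean of at least 1 CPM, Benjamini-Hochberg adjustment over all 11675 genes tested and a threshold of 0.05. The letter was kept because all 24 same-letter pairs of libraries deviated together from their group means (correlations of 0.143 to 0.468, against −0.114 as the median and 0.178 as the highest of 72 other pairs, so that the ranges overlap). Deviations from the mean of 4 libraries sum to 0 within a group. The correlations of other pairs therefore depend on those of same-letter pairs and are not an independent baseline. A prior count of 0.5 was used for log2 CPM. SEs were derived from the F statistic. Lengths and positions are from GENCODE release M21. Totals of 22346049 to 35512004 left *Soat1* with 12 to 37 counts per library. Over the 24 pairs of libraries within a group, chi-square per gene was 8.55 to 120, so that none was a duplicate, and it was at least 86.9 for the 3 pairs with lipid + itaconate B against at most 52.3 for others.

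Alternatives were no letter, RLE normalization, the filterByExpr filter, no filter, DESeq2 1.42.0 (Wald test), limma 3.58.1 (limma-trend), only the 8 libraries compared, and each library left out. An exact test over sign changes of the 4 letters cannot go below p = 0.125 and was not used for calls. The genes named are the 8 genes, the 2 largest rises and falls called in each list and comparison, and the 3 nearest patterns of each gene, except some that are not reported here. Markers of other cell types are named where they lead or define a list. The genes and lists were chosen with earlier results of these data known, and the lists are from general knowledge.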

Additional observations from a re-analysis of the deposited data

Results flagged for a closer look

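Among 32 sets of 4 libraries (8 genes in 4 groups), 3 held a library far from the others by Dixon's test at 95%, where chance alone gives about 1 in 20. *Srebf2* in untreated B was at 131.4 CPM, with the others at 122.8 to 124.2. *Srebf2* in itaconate C was at 99.59 CPM, with the others at 115.2 to 116.4, and without it the log2 fold change with itaconate was −0.11 (adjusted p = 0.3783). *Soat1* in lipid A was at 0.4867 CPM, with the others at 1.146 to 1.239, on 12 counts.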

How the results depend on the processing

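The falls of *Srebf2*, *Insig1* and *Stard4* with lipid, alone and beside itaconate, passed the threshold in all 23 alternatives, the highest adjusted p being 0.03074 for *Stard4* without lipid B. Leaving out 1 library gave 3 to 4 called genes of the 7 with lipid and 3 beside itaconate. The added gene was *Soat2* without lipid + itaconate C, lipid D or lipid + itaconate D and with only the 8 libraries (lowest adjusted p = 0.03609), *Insig2* without lipid B (0.04128) and *Scap* without lipid A (0.03308). With itaconate alone 2 genes passed with only the 8 libraries and 1 (*Srebf2*) without lipid + itaconate B, leave-one-out range 0 to 1. For the interaction 1 passed with no filter (*Insig1*, adjusted p = 0.04821). The cause was not tested for these.

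Counts over all genes moved more. Without the replicate block, 23 genes were called with itaconate (573 with it), 9 with itaconate on top of lipid (301) and 0 for the interaction (1), and calls of the 7 genes tested did not change. With no filter these counts were 1091, 725 and 231. With only the 8 libraries they were 1865 with itaconate and 13 on top of lipid. DESeq2 gave 512 on top of lipid and 36 for the interaction, and RLE normalization and filterByExpr gave 2 each for the interaction. Leaving out 1 library gave 149 (without itaconate C) to 1047 (without lipid + itaconate C), 59 (without lipid + itaconate A) to 889 (without lipid + itaconate C) and 0 to 8 (without lipid B). The cause was not tested.

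Directions turned only for log2 fold changes near 0 that gave no call. *Scarb1* with lipid beside itaconate was −0.0075 with RLE and −0.0076 in DESeq2, and its leave-one-out range was −0.0146 to 0.028. The other turns came with 1 library left out: *Insig2* ranged from −0.0735 to 0.0071 with lipid beside itaconate and from −0.0097 to 0.071 with itaconate, *Soat2* from −0.121 to 0.0013 with lipid beside itaconate, *Srebf2* from −0.042 to 0.071 and *Scap* from −0.042 to 0.011 on top of lipid, and *Stard4* from −0.172 to 0.011 in the interaction. Depth limits *Soat1*, whose change with lipid had an SE of 0.309 on the log2 scale.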
